A study of Mus musculus with 12 samples.

Results

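The 10 genes described here encode beta-catenin and the proteins that control it inside the cell: *Ctnnb1* (beta-catenin), the scaffolds *Apc*, *Axin1* and *Axin2*, the kinases *Gsk3a*, *Gsk3b* and *Csnk1a1*, the receptor-turnover gene *Znrf3*, and the DNA-binding effectors *Lef1* and *Tcf7l2*. They were picked by symbol from the 55401 genes of the count table, as the canonical Wnt machinery without the Wnt ligands, and each matched 1 gene. *Ctnnb1* and *Znrf3* were noted for their values in these same libraries, so their levels and fold changes are a description with no test, and tests were counted over the other 8 genes.

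The libraries hold RNA of mouse oocytes (C57Bl/6j x CBA/J in the labels, C57BL/6JRj x CBA/JRj in the methods) from primordial follicles, which are dormant, or from primary follicles, which have begun to grow. Ovaries of mice 7 to 8 days old spent 5 days in culture, either with the solvent DMSO (control) or with the AMPK inhibitor dorsomorphin (DM), and 200 oocytes were pooled for each library. The 4 groups are primordial control, primordial DM, primary control and primary DM, with 3 libraries each, described by the authors as biologically independent samples. The labels call the control sham and the material in vivo, whereas the methods describe culture with DMSO, which is followed here. For ovary culture the methods give a range of DM doses and a lead dose, without naming the dose for these libraries. Oocytes were cut by laser from fixed, paraffin-embedded sections, and the RNA was amplified before sequencing.

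In canonical Wnt signalling, a Wnt ligand bound to its receptors stops the breakdown of beta-catenin, which then enters the nucleus and acts with TCF and LEF proteins on target genes. Without the ligand, the destruction complex of APC, axin, GSK3 and casein kinase 1 alpha phosphorylates beta-catenin and marks it for degradation. In the ovary this pathway is known from granulosa cells and from the early choice between ovary and testis. The control of beta-catenin is mostly at the protein level, which transcript counts do not show.

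The libraries held 14034586 to 42639326 counts, so that a count of 0 allowed at most 0.0704 to 0.214 counts per 1000000 counts of the library (CPM), a limit for counting error only. Replicates varied widely, with a coefficient of variation between replicates of 1.76 to 1.90 estimated by edgeR in these comparisons. Genes at 1 CPM or more numbered 3281 to 7909 in the primordial libraries and 1727 to 5662 in the primary libraries. The 15 oocyte markers summed to 6.84 to 1406 CPM. Markers of the surrounding cells were abundant: 10 granulosa genes summed to 388 to 11562 CPM and 8 stroma genes to 2164 to 12531 CPM. The defining oocyte gene *Ddx4* ranged from 11 to 47451 counts and reached 1 CPM in 8 of the 12 libraries. The oocyte marker *Kit* did so in 10, *Gdf9* and *Nlrp5* in 8, *Nobox* in 2, and *Sohlh1*, *Ooep* and *Oosp1* in 0. Blood and immune markers summed to at most 1.32 CPM, with 3 of 5 at 0 in every library. Fewer cells of a type and less RNA per cell cannot be told apart in pooled samples such as these, and the part of surrounding cells in the results below was not tested.

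**Figure D1:**
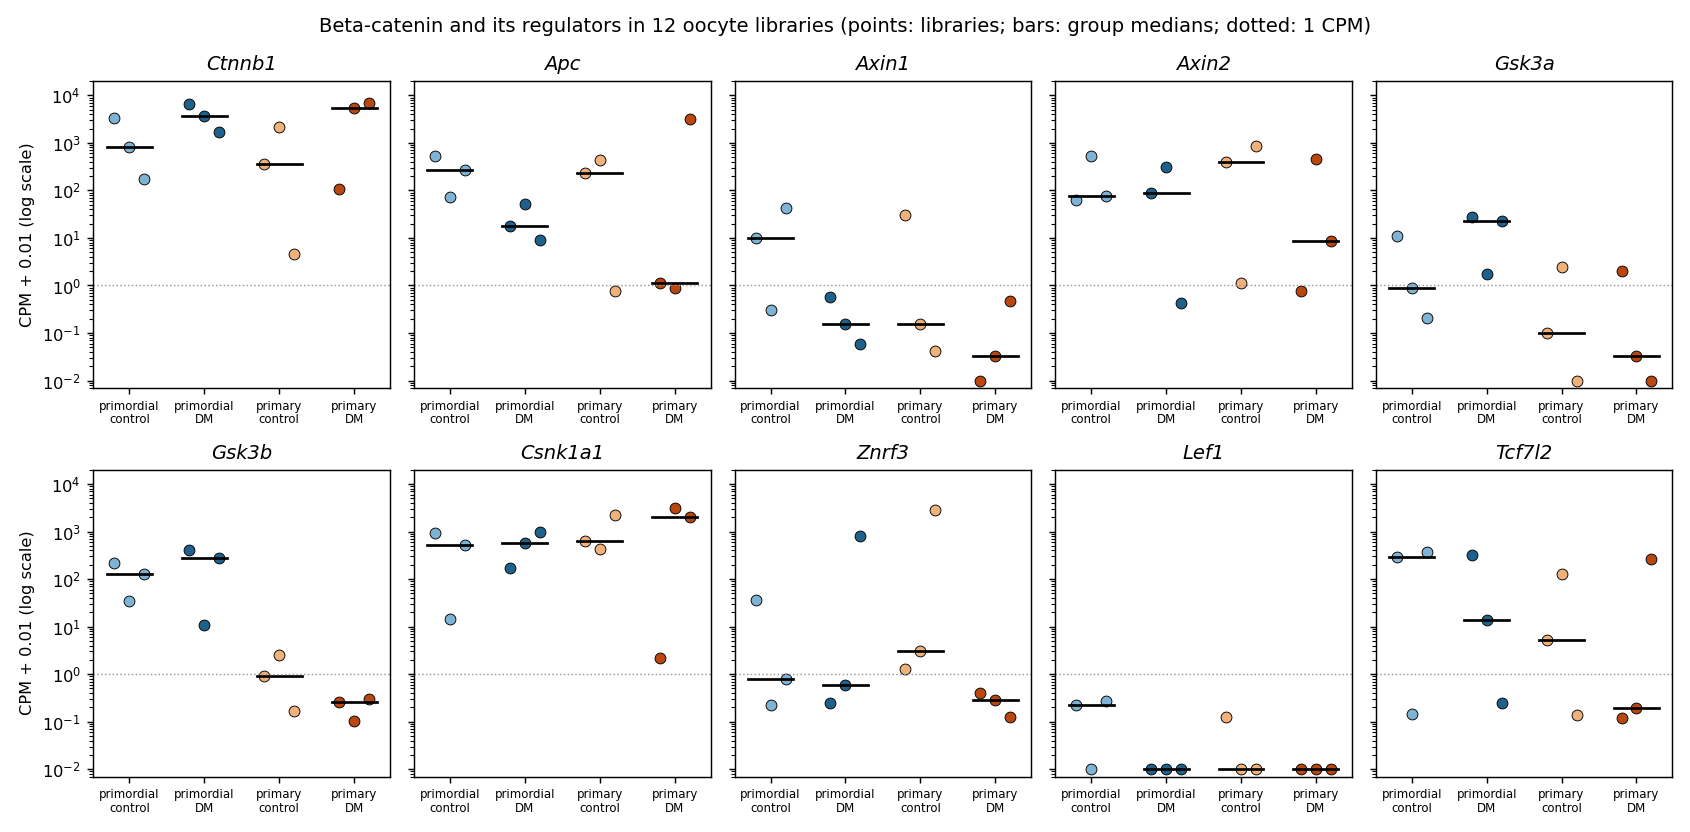
CPM of the 10 genes in the 12 libraries, by group, on a log axis after adding 0.01 CPM. Each point is a library, the bar is the median of the group and the dotted line is 1 CPM. *Gsk3b* lies at 10.9 CPM or above in the primordial and at 2.49 CPM or below in the primary libraries, whereas *Csnk1a1* exceeds 1 CPM in all 12.

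Between the genes, levels were compared per kilobase of exon (CPM/kb). *Ctnnb1* led with a mean of 506 ± 500 CPM/kb (SD, n = 12), followed by *Csnk1a1* with 93.0 ± 94.8 CPM/kb. *Axin2* had 42.4 ± 50.9, *Znrf3* 39.5 ± 107 and *Apc* 24.6 ± 54.3 CPM/kb. These means were close to or below their SDs. Lower still were *Tcf7l2* with 13.3 ± 17.2, *Gsk3b* with 9.15 ± 14.1, *Gsk3a* with 1.96 ± 3.27 and *Axin1* with 1.83 ± 3.72 CPM/kb. *Lef1* came last with 0.0056 ± 0.011 CPM/kb. *Ctnnb1* was above *Csnk1a1* in 10 of 12 libraries and *Gsk3b* above *Gsk3a* in 10 of 12, while *Tcf7l2* was above *Gsk3b* in 7 of 12. None of these neighbouring means differed by more than the larger of their SDs. The fourth place of *Znrf3* rested on 1 library: it was above *Apc* in only 2 of 12 libraries, and by the median over the 12 libraries it ranked 8 of 10, with 0.0866 CPM/kb.

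The number of the 10 genes at 1 CPM or more varied with the number of all genes detected. In primordial follicles it was 9, 5 and 7 in the controls and 7, 7 and 6 after DM. The primary controls had 7, 8 and 4 of them and the primary DM libraries 4, 3 and 5. Of the 11275 genes that reached 1 CPM in any library, 29.1% to 70.1% did so in each primordial library and 15.3% to 50.2% in each primary library. *Ctnnb1* and *Csnk1a1* reached 1 CPM in all 12 libraries, *Apc* and *Axin2* in 10, *Gsk3b* and *Tcf7l2* in 7, *Gsk3a* in 6, *Znrf3* in 5, *Axin1* in 3 and *Lef1* in 0.

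*Ctnnb1* (chr9:120929216-120960507 in GRCm38, plus strand) encodes beta-catenin, which serves both in Wnt signalling and in cadherin junctions. It stood at 3339, 829 and 175 CPM in the primordial controls and at 6584, 3631 and 1677 CPM after DM. The primary controls stood at 366, 2193 and 4.53 CPM and the primary DM libraries at 107, 5538 and 7063 CPM. The ranges overlapped between DM and control at both stages, and the medians were higher after DM at both. It was the most abundant of the 10 by CPM in 9 of 12 libraries. Its log2 fold change after DM was 2.25 (SE 0.94) in primordial and 4.62 (SE 2.79) in primary follicles. Between stages, primary minus primordial, it was -0.72 (SE 2.15) in the controls and 1.95 (SE 1.88) after DM. The value in the controls was 0.19 without the primordial control library 1 and -2.22 without the primary control library 2. After DM it was 1.24 without the primary DM library 2. Its exons overlap *Mir7090* on its own strand and *Ulk4* on the other. These genes had at most 752 and 229 counts in any library, and whether the counting used strand is not given in the sources used here.

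By the mean absolute difference in log2(CPM + 1) over the 12 libraries, the genes nearest to *Ctnnb1* among 8288 with at least 10 counts in at least 3 libraries were *Cltc* (clathrin heavy chain, 1.07), *Gstm2* (a glutathione transferase, 1.16) and *Hnrnpa2b1* (an RNA-binding protein, 1.47). All 3 were, like *Ctnnb1*, in the primary control library 3 at under 5 CPM, with 4.40, 4.18 and 3.63 CPM.

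Of the scaffolds, *Apc* (chr18:34220924-34322552, plus strand) encodes the tumour suppressor that holds beta-catenin in the destruction complex. It had 535, 73.3 and 267 CPM in the primordial controls and 18.2, 51.4 and 8.84 CPM after DM. Every DM library was thus below every control library at this stage. The log2 fold change was -2.71 (SE 2.91), with an adjusted p of 0.844 by edgeR's quasi-likelihood test. Groups did not overlap for 1 of the 9 genes of the set that passed the filter on low counts, namely *Apc*, beside 13% of the 6699 genes tested. In primary follicles *Apc* had 237, 441 and 0.771 CPM in the controls and 1.13, 0.891 and 3114 CPM after DM. The DM library 3 alone held 65.6% of the CPM of *Apc* over all 12 libraries. The log2 fold change of 4.21 (SE 3.24, edgeR adjusted p = 0.497) became -5.64 without that library.

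*Axin1* (chr17:26138688-26195811, plus strand), the scaffold that limits the assembly of the complex, was low. It had 9.86, 0.297 and 42.7 CPM in the primordial controls and 0.549, 0.143 and 0.0475 CPM after DM. The groups overlapped, and the log2 fold change was -5.78 (SE 3.34, edgeR adjusted p = 0.658). DESeq2 gave -5.88 (SE 1.93) and an adjusted p of 0.0225, the lowest among the alternatives, which reached 0.999. It called 656 of the 6699 genes in this comparison. In primary follicles the controls had 1024, 2 and 1 counts and the DM libraries 0, 1 and 16, which was under the filter on low counts.

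*Axin2* (chr11:108920349-108950783, plus strand) is a second axin and a widely used target gene of the pathway. It had 63.4, 523 and 77.6 CPM in the primordial controls and 86.7, 315 and 0.428 CPM after DM. The values in primary follicles were 399, 1.14 and 875 CPM for controls and 0.763, 451 and 8.41 CPM for DM. Within each of the 3 groups other than the primordial controls, a library with under 2 CPM stood beside one with 315, 875 or 451 CPM. The log2 fold changes after DM were -0.53 (SE 2.43, edgeR adjusted p = 0.978) in primordial and -1.19 (SE 2.99, edgeR adjusted p = 0.837) in primary follicles. The other direct target genes listed for the pathway were also low or scattered. *Myc* had 241 counts in 1 primary control library and at most 51 elsewhere, and *Cd44* had at most 343.

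The kinases GSK3 alpha and GSK3 beta, which phosphorylate beta-catenin, are encoded by 2 paralogs. Of the 8 tested genes, *Gsk3b* (chr16:38089001-38246084, plus strand) was the one whose libraries separated by stage, which was seen from its values. It had 216, 34.7 and 129 CPM in the primordial controls and 408, 10.9 and 277 CPM after DM. The primary controls had 0.910, 2.49 and 0.161 CPM and the primary DM libraries 0.254, 0.0938 and 0.285 CPM. Every primary library, with 4 to 35 counts, was below every primordial library, with 380 to 15582 counts. The same held within the controls and within the DM libraries.

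The log2 fold change of *Gsk3b*, primary minus primordial, was -6.43 (SE 3.58, edgeR adjusted p = 0.750) in the controls and -8.76 (SE 3.97, edgeR adjusted p = 0.286) after DM. With all 12 libraries in 1 fit and the stages compared over both treatments, it was -7.45 (SE 2.57, edgeR adjusted p = 0.104). This last contrast was chosen with the values known. None of the 3 edgeR results passed the threshold of 0.05, and all 3 did with DESeq2, at adjusted p of 0.0225, 0.000658 and 2.35e-05. DESeq2 called 290 of 6726, 934 of 4331 and 932 of 8500 genes in the same 3 comparisons. Leaving out each library in turn gave fold changes over all 12 libraries between -7.63 and -7.10. *Gsk3b* passed the filter through the primordial libraries, and among the primary libraries alone it was under the filter. It was also picked out from these values, and the contrast over all 12 libraries was chosen with them known. Neither the range with each library left out nor any of the 3 DESeq2 results therefore adds support. Groups failed to overlap for 1 of 9 genes of the set in the controls beside 9.69% of all genes tested, and for 1 of 8 after DM beside 18.5%. Over all 12 libraries, 0.529% of the 8500 genes tested, 45 in number, had stages that did not overlap. Of the 9 genes of the set tested this was 1, *Gsk3b*. Since *Gsk3b* was picked out for this separation, nothing is read from these shares.

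The number of genes detected also differed between the stages, though its ranges overlapped. The primary control libraries 1 and 2, with 5106 and 5662 genes at 1 CPM, had 0.910 and 2.49 CPM of *Gsk3b*. The primordial DM library 3, with 3281 such genes, had 277 CPM. The primary control library 3 and the primary DM libraries detected 1727, 2864, 1798 and 2369 such genes, fewer than any primordial library. Their *Gsk3b* stood at 0.161, 0.254, 0.0938 and 0.285 CPM. The part of the number of genes detected in the stage difference was not tested.

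Markers of granulosa cells were also compared between the stages, in the same 12-library contrast as *Gsk3b*. Of the 10 listed, 9 passed the filter, and 3 of these were higher in primary follicles. Their median log2 fold change was -0.47, beside -0.56 over all genes. Only 1 was called, *Foxl2*, a transcription factor of granulosa cells, with a log2 fold change of 7.74 (SE 1.67, edgeR adjusted p = 0.0317). Averaged over both treatments it was higher in primary follicles, and it was the only gene of the 8500 called for the stages by edgeR. No gene was called with library size alone, without the filter, with at least 10 counts in every library or with a replicate block. Nor was any called without a primordial library, or without the primary control library 1 or 2. Size factors gave 85 called genes, and leaving out each other primary library gave 3 to 14. *Foxl2* had 1075, 1053 and 278 CPM in the primordial controls and 2.54, 18.8 and 2.90 CPM with DM. The primary controls had 316, 9.62 and 7291 CPM and the primary DM libraries 148, 11123 and 194 CPM. Its stages overlapped in the controls, where the median was 1053 CPM in primordial and 316 CPM in primary follicles. They did not overlap with DM, where 18.5% of the 4331 genes tested did not overlap either. Summed, the 10 markers ranged from 401 to 3509 CPM in the primordial and from 388 to 11562 CPM in the primary libraries. Their part in the stage difference of *Gsk3b* was not tested.

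**Figure D2:**
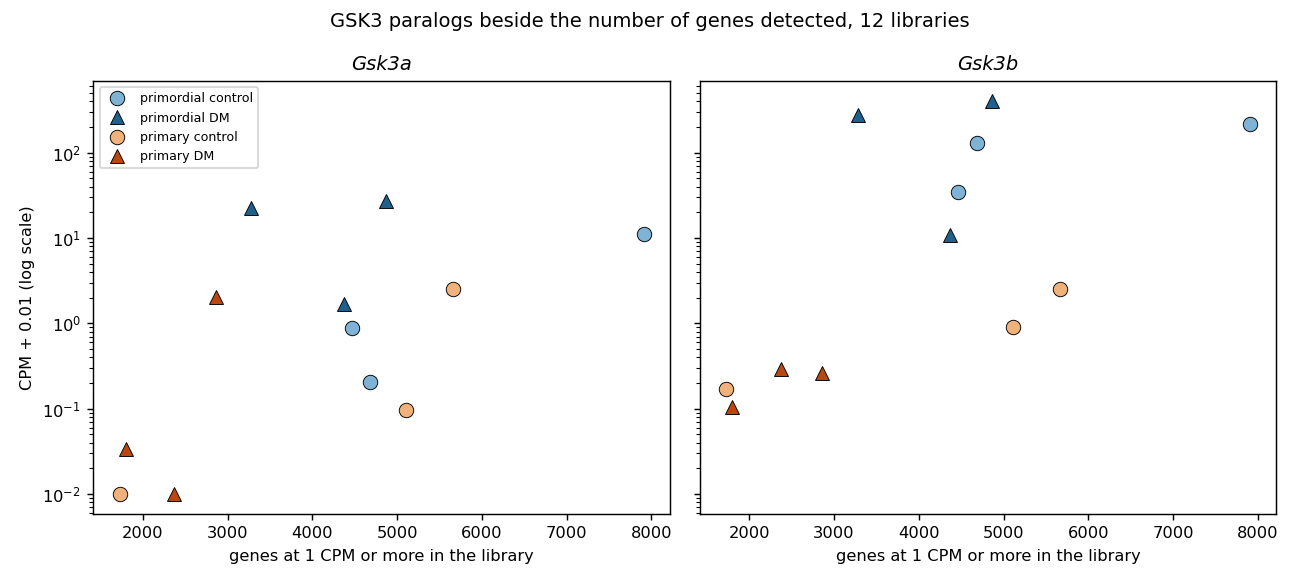
*Gsk3a* (left) and *Gsk3b* (right) in CPM, on a log axis after adding 0.01 CPM, against the number of genes at 1 CPM or more in the same library. Circles are controls, triangles DM, blue primordial and orange primary. For *Gsk3b* the 6 primary libraries lie below the 6 primordial ones.

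*Gsk3a* (chr7:25228258-25237851, minus strand) was less abundant and did not separate by stage. It had 11.02, 0.863 and 0.198 CPM in the primordial controls and 27.1, 1.69 and 22.6 CPM after DM. In primary follicles it had 0.0880, 2.49 and 0 CPM in the controls and 2.04, 0.0235 and 0 CPM after DM. The stages overlapped under both treatments. The log2 fold change was -2.10 (SE 2.44, edgeR adjusted p = 0.911) between stages in the controls, -3.97 (SE 2.82, edgeR adjusted p = 0.421) after DM, and 3.14 (SE 3.03, edgeR adjusted p = 0.819) for DM in primordial follicles. Its exons overlap *9130221H12Rik* on the other strand, which had at most 71 counts.

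The bases before the annotated starts of both GSK3 genes are shown because the paralogs differed in how their libraries separated by stage, and because both windows hold the core of the TCF and LEF motif. RefSeq promoters (GRCm38.p6) were at hand for 6 of the 10 genes, with 11 windows in all, and the 250 bases before each start were searched for CTTTGA on both strands. Capitals mark the motif, which reads TCAAAG on the gene's own strand in both windows, 77 bases before the start of *Gsk3b* (chr16:38088751-38089000, plus strand) and 157 bases before that of *Gsk3a* (chr7:25237852-25238101, minus strand).
Gsk3b: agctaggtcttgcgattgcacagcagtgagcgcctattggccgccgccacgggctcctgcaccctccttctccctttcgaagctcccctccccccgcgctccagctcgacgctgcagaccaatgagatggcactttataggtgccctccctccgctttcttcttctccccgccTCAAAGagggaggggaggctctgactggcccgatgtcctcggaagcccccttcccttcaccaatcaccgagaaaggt
Gsk3a: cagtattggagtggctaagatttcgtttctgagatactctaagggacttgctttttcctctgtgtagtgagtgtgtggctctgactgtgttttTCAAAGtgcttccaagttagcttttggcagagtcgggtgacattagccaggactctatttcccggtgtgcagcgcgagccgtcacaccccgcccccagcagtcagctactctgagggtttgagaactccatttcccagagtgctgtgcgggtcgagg
The letters occurred in 3 of the 11 windows, the third being 1 of the 4 windows of *Lef1*, and in 13.8% of 32851 windows of the same length over all genes. The windows of *Ctnnb1*, *Axin2* and *Tcf7l2* held none. These are matches of letters only.

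*Csnk1a1* (chr18:61555274-61590061, plus strand) encodes casein kinase 1 alpha, which phosphorylates beta-catenin before GSK3 does. It had 925, 14.4 and 511 CPM in the primordial controls and 170, 568 and 992 CPM after DM. The primary controls had 646, 433 and 2263 CPM, and the primary DM libraries 2.22, 3183 and 2008 CPM. It was above 100 CPM in 10 of 12 libraries, and the groups overlapped in every comparison. Primary minus primordial, its log2 fold change was 3.38 (SE 2.23, edgeR adjusted p = 0.802) in the controls and 3.38 (SE 2.40, edgeR adjusted p = 0.420) after DM. DESeq2 gave 5.18 (SE 1.90, adjusted p = 0.0218) after DM, where it called 934 of the 4331 genes. After DM its log2 fold change was 1.21 (SE 1.74, edgeR adjusted p = 0.890) in primordial and 0.76 (SE 2.53, edgeR adjusted p = 0.877) in primary follicles.

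*Znrf3* (chr11:5276324-5444847, minus strand) encodes a membrane ubiquitin ligase that removes Wnt receptors from the cell surface. It had 37.0, 0.216 and 0.794 CPM in the primordial controls and 0.235, 0.573 and 791 CPM after DM. Primary follicles had 1.26, 2.99 and 2907 CPM in the controls and 0.400, 0.281 and 0.114 CPM after DM. One library per group stood far above the other two in 3 of the 4 groups, and the primary control library 3 held 77.7% of all its CPM. That share was higher than for any other of the 10 genes. Over 8288 genes with at least 10 counts in at least 3 libraries, the highest library held a median of 52.1% (quartiles 37.8% and 70.9%).

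All DM libraries of primary follicles were below all controls for *Znrf3*, 1 of 6 genes of the set, beside 13% of the 4181 genes tested. Since the gene was noted for its values, nothing is read from this. Its log2 fold change after DM was -12.6 (SE 4.42) in primary and 5.76 (SE 2.99) in primordial follicles. Without the primary control library 3 the former was -0.85, and without the primordial DM library 3 the latter was -4.02. Between stages it was 9.07 (SE 2.88) in the controls, and -2.19 without the primary control library 3. After DM it was -8.75 (SE 4.13), and 1.03 without the primordial DM library 3.

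The genes nearest to *Znrf3*, by the same measure as above, were *Crebzf* (a bZIP protein, 0.93), *Mnt* (a MAX-binding repressor, 1.02) and *Rrp12* (ribosome biogenesis, 1.05). With 0.1 in place of 1 as the pseudocount, 2 of these 3 were among the nearest 3.

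Of the DNA-binding effectors, *Lef1* (chr3:131110471-131224356, plus strand) was at the limit of detection. It had 8, 0 and 4 counts in the primordial controls, 4 counts in 1 primary control and 0 counts in the other 8 libraries. No difference was detectable at this depth. *Tcf7l2* (chr19:55741820-55933654, plus strand) had 296, 0.135 and 370 CPM in the primordial controls and 314, 13.9 and 0.238 CPM after DM. In primary follicles it had 5.34, 126 and 0.129 CPM in the controls and 0.109, 0.188 and 271 CPM after DM. Every group held a library below 1 CPM and a library above 100 CPM. Its log2 fold change after DM was -0.57 (SE 2.64, edgeR adjusted p = 0.978) in primordial and 3.13 (SE 3.31, edgeR adjusted p = 0.614) in primary follicles. The latter was -5.72 without the primary DM library 3.

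**Figure D3:**
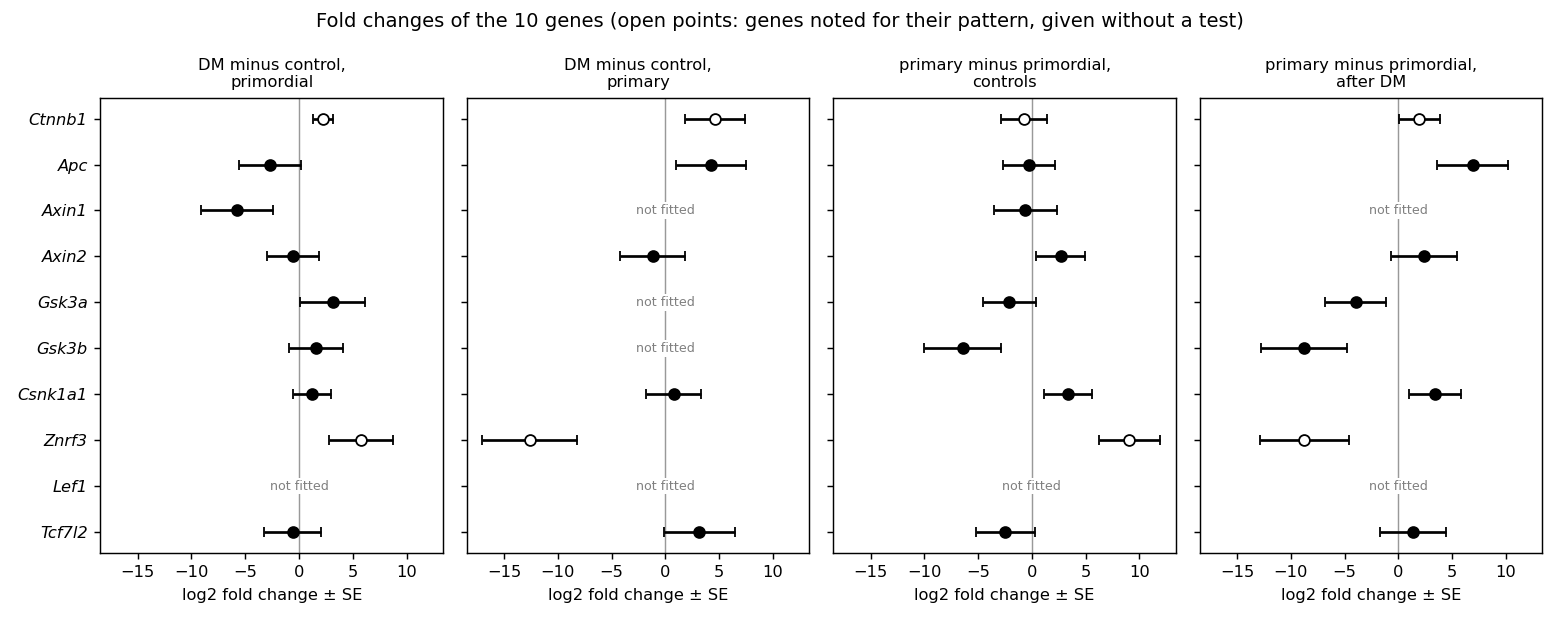
Log2 fold changes with SE from edgeR for the 4 pairwise comparisons, 3 libraries against 3. Open points are *Ctnnb1* and *Znrf3*, given without a test, and genes under the filter on low counts are marked as not fitted. *Gsk3b* is at -6.43 and -8.76 in the 2 stage comparisons.

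The first question of the study is what DM changes at each stage. In primordial follicles 9 of the 10 genes passed the filter, and 0 of the 7 tested were called by edgeR at an adjusted p under 0.05, beside 0.0149% of all genes. At an unadjusted p under 0.05 it was also 0, beside 491 of the 6699 genes tested. DESeq2 called 1, *Axin1*, beside 656 of the 6699. In primary follicles 6 of the 10 passed and 0 of the 4 tested were called, beside 0% of all genes. The unadjusted count was 0, beside 508 of the 4181 genes tested, and DESeq2 called 0, beside 695 of the 4181. At the primordial stage the tested genes had a median log2 fold change of -0.53, beside 0.13 over all genes, and 3 of 7 were above 0. At the primary stage the median was 1.94, beside 0.31, and 3 of 4 were above 0. Of these 4, *Apc* and *Tcf7l2* turned to -5.64 and -5.72 without the primary DM library 3.

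Between stages, 9 genes passed in the controls and 8 after DM. Called were 0 of the 7 tested in the controls and 0 of the 6 tested after DM, beside 0% of all genes in both. At an unadjusted p under 0.05 there were 0 in the controls, beside 433 of the 6726 genes tested. After DM there were 2, *Apc* and *Gsk3b*, beside 746 of the 4331 tested. DESeq2 called 1 in the controls, *Gsk3b*, beside 290 of the 6726 genes. After DM it called 2, *Gsk3b* and *Csnk1a1*, beside 934 of the 4331 genes. The median log2 fold change of the tested genes was -0.62 in the controls and 1.88 after DM, beside -0.31 and 0.35 over all genes. Above 0 were 2 of 7 and 4 of 6. After DM, *Apc* and *Tcf7l2* turned to -3.23 and -7.70 without the primary DM library 3.

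Whether the response to DM differed between the stages was tested over all 12 libraries. The interaction called 0 of the 7 tested genes by edgeR, beside 0% of the 8500 genes. DESeq2 also called 0 of the 7, beside 683 of the 8500. An unadjusted p under 0.05 was found for 1 of the 7, *Apc*, beside 1605 of the 8500 genes. Its log2 difference was 7.19 (SE 3.59, edgeR adjusted p = 0.256), and -2.84 without the primary DM library 3. The alternatives gave *Apc* adjusted p-values of 0.179 to 0.799. For *Znrf3*, given without a test since it had been noted for its pattern, the difference was -18.2 (SE 4.44). It was -6.38 without the primary control library 3 and -8.95 without the primordial DM library 3.

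In 2 further contrasts over the 12 libraries, added once the values were known, stages and treatments were each compared over the other factor. For the stages, 0 of 7 genes were called by edgeR, beside 0.0118% of all genes (the granulosa marker *Foxl2*). At an unadjusted p under 0.05 there were 2 (*Gsk3b* and *Csnk1a1*), beside 1880 of the 8500 genes. DESeq2 called these same 2, beside 932 of the 8500. For DM, 0 of 7 were called, beside 0.118% of all genes. At an unadjusted p under 0.05 there was 1 (*Axin1*), beside 1915 of the 8500 genes. DESeq2 then called 1, *Gsk3a*, beside 977 of the 8500.

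Of 72 other genes of the canonical pathway, 33 and 29 passed the filter for DM in primordial and primary follicles, and 37 and 31 for the stages in the controls and after DM. In the interaction 44 passed. edgeR called 0 in all 5 comparisons. The median log2 fold changes were -0.07 and 0.34 for DM and -1.36 and 0.30 for the stages, near those of all genes except for the stages in the controls.

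The most abundant receptors were *Lrp6* and *Lrp5*, the co-receptors for Wnt ligands, with means of 869 and 203 CPM over the 12 libraries. *Lrp6* reached 1 CPM in 12 libraries and *Lrp5* in 11. Among other parts of beta-catenin turnover, the deubiquitinase *Usp34* had a mean of 1139 CPM and the tankyrase *Tnks*, which marks axin for degradation, 337 CPM. The nuclear co-factors *Bcl9* and *Bcl9l*, which bind beta-catenin, had 230 and 205 CPM. For dishevelled and ligand release, *Dvl3* had 71.8 and *Wls* 70.1 CPM. Of these, *Usp34* reached 1 CPM in 12 libraries, *Dvl3* in 11, *Tnks* in 10, *Bcl9l* in 8, *Bcl9* in 7 and *Wls* in 5.

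The most abundant genes of the R-spondin axis and of the inhibitors reached 1 CPM in 2 to 5 libraries. *Lgr5*, a receptor for R-spondin, had 24016 and 6992 counts in 2 DM libraries and at most 8 in the other 10, and *Lgr4* had a mean of 42.6 CPM. Among inhibitors, *Frzb* had 12798 counts in 1 primary DM library and at most 45 elsewhere, and *Sfrp1* had at most 2200 counts. Of the 13 inhibitors listed, 7 had 0 counts in every library.

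**Figure D4:**
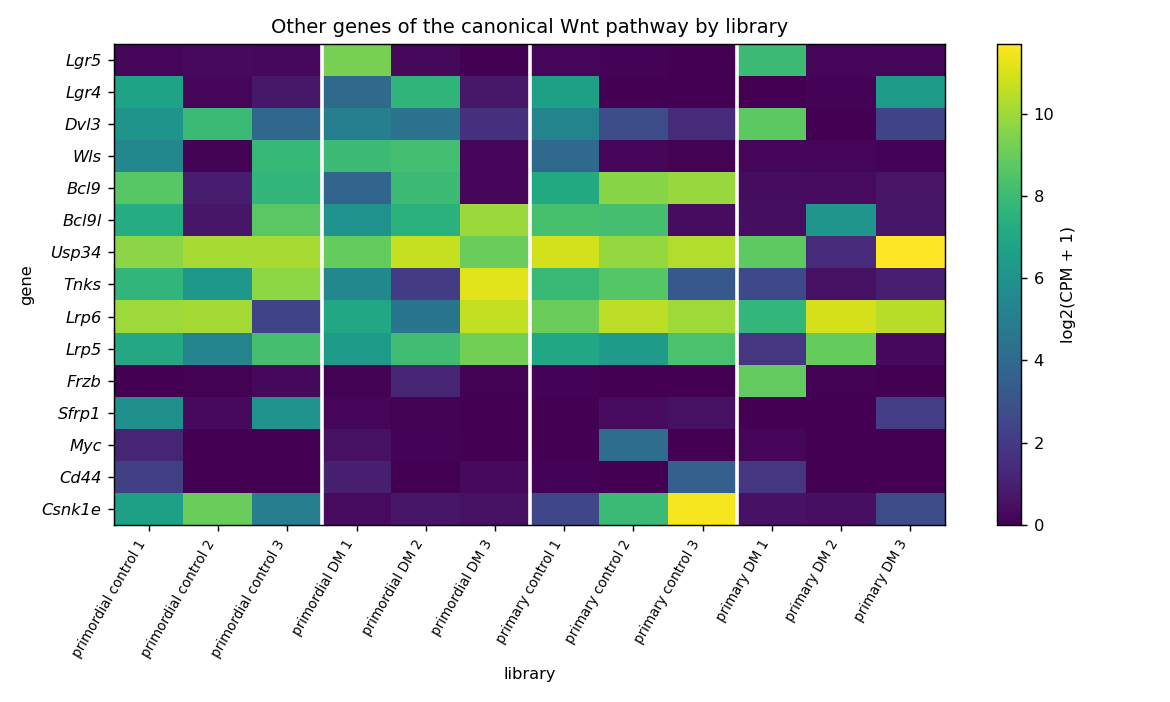
Log2(CPM + 1) of the most abundant genes of each other group of the pathway, and of *Csnk1e*, in the 12 libraries. White lines separate the groups. *Usp34* and *Lrp6* reach 1 CPM in all 12 libraries, and *Lgr5* and *Frzb* in 2 each.

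One other pathway gene passed the threshold, in the added contrast of DM over both stages. *Csnk1e*, a casein kinase 1 that phosphorylates dishevelled, had 101, 519 and 30.8 CPM in the primordial controls and 0.262, 0.659 and 0.428 CPM after DM. In primary follicles it had 4.70, 250 and 2938 CPM in the controls and 0.473, 0.375 and 5.36 CPM after DM. The primordial groups did not overlap, beside 13% of the 6699 genes tested. In primary follicles the highest DM library lay just above the lowest control. The log2 fold change was -9.00 (SE 2.22, edgeR adjusted p = 0.0497). DESeq2 gave no p for it. The call was lost in 10 of 12 fits that left out 1 library (adjusted p 0.0736 to 0.170). It was also lost with size factors, with library size alone, without the filter and with a replicate block (0.0683 to 0.421). Within the stages it was -8.59 (SE 3.86, edgeR adjusted p = 0.658) and -9.60 (SE 3.96, edgeR adjusted p = 0.395).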

How the data were processed

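RNA sequencing of 12 libraries of laser-captured mouse oocytes, 3 per group, was analysed from the counts per gene that the authors deposited without normalization. Per the methods, reads were mapped to mm10 with TopHat2 and counted with featureCounts, whereas the submitters' processing notes list Trim Galore, STAR and featureCounts. All columns carried the name of 1 sample. Of 55401 identifiers 55141 matched a symbol, ignoring the version number, and *Tle5* was matched as *Aes*. No 2 libraries of a group agreed within sampling noise. Positions and exon overlaps are from an annotation of GRCm38.

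Each comparison was fitted on the whole table with edgeR 4.0.16 in R 4.3.3 (filterByExpr with a minimum of 10 counts, TMM, glmQLFit, glmQLFTest), with Benjamini-Hochberg adjustment over all genes tested and a threshold of 0.05. The study used DESeq2, here an alternative (1.42.0). SEs were derived from the fold change and the F statistic. CPM used total counts, without TMM. The genes and lists were chosen with earlier results of these data known. Named are all 10 genes, per other pathway group the 2 with the highest mean CPM and any called, and the 3 genes nearest to *Ctnnb1* and to *Znrf3*. On simulated counts, 200 genes were changed by a log2 fold change of 3 in either direction, and all genes shared 1 dispersion. With a dispersion of 0.05, edgeR recovered 98% of the changed genes for DM at both stages. At the common dispersions of these libraries (3.10 in primordial and 3.45 in primary follicles) it recovered 0%. Larger changes, and dispersions that differ between genes, were not simulated. Tables were made with Python, pandas and matplotlib.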

Additional observations from a re-analysis of the deposited data

How the results depend on the processing

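In the 5 planned comparisons and the 2 added ones, the number of tested genes of the set called was 0 under edgeR with size factors, library size alone, no filter or at least 10 counts in every library, and in the 4 pairwise comparisons also with all 12 libraries in 1 fit. It was 0 to 0 in all fits that left out 1 library. DESeq2 called 1 for DM in primordial follicles, 1 for the stages in the controls, 2 for the stages after DM, 2 for the stages over both treatments and 1 for DM over both stages. Over all genes it called 656, 290, 934, 932 and 977 in the same 5 comparisons. Between libraries with the same replicate number, deviations from the group means had correlations of -0.038 to 0.031. With replicates that vary this widely, such values cannot show whether the samples were paired. The fit with a replicate block called 0 in all 7. With that block the log2 fold change turned sign for *Tcf7l2* (0.92 for DM in primordial and -3.76 in primary follicles, -3.93 for the stages after DM), *Apc* (-4.87 for DM in primary follicles, -1.82 for the stages after DM) and *Csnk1a1* (-0.86 for DM in primary follicles). With library size alone, *Tcf7l2* turned to -0.28 for the stages after DM. The cause of these changes was not tested. Of 24 fold changes of the tested genes, 136 of 147 refits with other settings and 126 of 144 that left out 1 library kept direction and side of the threshold. With 1 library left out, signs turned for DM in primordial follicles in *Axin2* (-2.28 to 1.63) and *Tcf7l2* (-4.21 to 0.36), and for DM in primary follicles in *Apc* (-5.64 to 5.02), *Axin2* (-6.86 to 2.20), *Csnk1a1* (-0.41 to 4.19) and *Tcf7l2* (-5.72 to 6.75). For the stages they turned in the controls in *Apc* (-0.71 to 0.36), *Axin1* (-6.83 to 1.60), *Axin2* (-0.22 to 5.26) and *Gsk3a* (-5.19 to 0.061), and after DM in *Apc* (-3.23 to 7.70), *Axin2* (-3.52 to 4.05) and *Tcf7l2* (-7.70 to 5.20). Among the untested pair, *Ctnnb1* ranged from -2.22 to 0.19 for the stages in the controls, and *Znrf3* turned sign for DM in primordial follicles (-4.02 to 9.58) and for the stages in the controls (-2.19 to 13.9) and after DM (-9.39 to 1.03). Size factors moved the median of all genes to 0.56 and 2.04 for DM in primordial and primary follicles, and library size alone to -0.41 and -0.87.

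SEs of 0.94 to 4.42 on the log2 scale, for pairwise fold changes of the 10 genes, limit what these comparisons can show. DESeq2 called 656 and 695 genes for DM in primordial and primary follicles, where edgeR called 1 and 0.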
